A study of Mus musculus with 6 samples.

Results

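A set of 10 genes for the transport of sodium, chloride, bicarbonate and potassium across the uterine epithelium was examined in whole day 4 uteri of control and *Gp130* ecKO mice. These were the 3 subunits of the epithelial sodium channel ENaC (*Scnn1a*, *Scnn1b* and *Scnn1g*), the ENaC regulators *Sgk1* and *Nedd4l*, the chloride and anion carriers *Cftr*, *Slc26a6* and *Slc12a2*, and the potassium channel subunits *Kcne1* and *Kcnq1*. The 10 genes were named for their role in luminal fluid, with earlier results of these data known, and are 10 of the 56748 genes listed per uterus. All 10 were found by symbol, and 8 of them had enough counts to enter the test across genes. *Scnn1g* and *Kcne1* were below that filter.

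RNA was sequenced from the uteri of 3 control and 3 *Gp130* ecKO females on day 4 of pregnancy, at 1600 h, just before embryos attach. *Gp130* (*Il6st*) encodes the shared signalling receptor of leukemia inhibitory factor and related cytokines. All were sexually mature. The *Gp130* ecKO females carried *Ltf*-iCre together with homozygous floxed *Gp130* alleles on a background labelled C57BL/6, which the methods give as C57BL/6J. *Ltf*-iCre expresses Cre from the lactotransferrin locus, which is active in the mature uterine epithelium and also in some myeloid cells. The controls are labelled WT with the same background, and the study describes its controls as either floxed females without Cre or wildtype females, so whether a given control carried floxed alleles is not known. Both groups were mated with a fertile wildtype male, and the methods describe anesthesia with medetomidine, midazolam and butorphanol before euthanasia. No other treatment is described for these uteri. The tissue was whole uterus, so epithelium, glands, stroma, muscle and vessels contributed to each value. In such RNA, fewer cells of a type and less RNA per cell cannot be told apart. The labels number the uteri 1 to 3 in each group without naming the animals, so the tests measure the spread between these samples only.

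In the mouse, the uterine lumen holds fluid around the time of ovulation and loses it before the blastocyst attaches, which lets the luminal walls close on the embryo. ENaC in the apical membrane takes sodium up from the lumen, water follows, and the kinase SGK1 keeps the channel at the surface by blocking the ubiquitin ligase NEDD4L that removes it. CFTR lets chloride and bicarbonate out into the lumen, SLC26A6 trades luminal chloride for bicarbonate, the basolateral cotransporter SLC12A2 (NKCC1) loads the cell with chloride, and potassium channels keep the driving force for chloride exit.

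The targeted gene was checked first. *Il6st* was at 631, 678 and 452 CPM (counts scaled to library size) in control uteri against 388, 349.8 and 362 CPM in *Gp130* ecKO. The highest *Gp130* ecKO value was below the lowest control value, with a log2 fold change of -0.68 ± 0.21 (SE, n = 3 per group, edgeR quasi-likelihood FDR = 0.120). Total counts per uterus ranged from 13960748 in control 3 to 25906443 in control 2. The test across 16605 genes called 26 genes (FDR under 0.05 and more than 2-fold), which was 0.157% of those tested.

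At that threshold edgeR's quasi-likelihood test called 0 of the 8 tested transport genes. The same test gave an unadjusted p under 0.05 for 5 of the 8, of which 4 were higher (*Sgk1*, *Scnn1a*, *Kcnq1* and *Cftr*) and 1 was lower (*Slc26a6*) in *Gp130* ecKO, where 25.0% of all tested genes passed the same limit, 12.1% higher and 12.9% lower. edgeR's exact test and its likelihood ratio test each called 4 of the 8, against 7.54% and 7.93% of all tested genes, and DESeq2 called 5, against 9.29%. The 4 were *Sgk1*, *Scnn1a*, *Kcnq1* and *Slc26a6*, and DESeq2 added *Cftr*. Over all 10 genes, the CPM values of the groups did not overlap for 7, with 5 higher and 2 lower in *Gp130* ecKO. Groups did not overlap for 20.9% of the 29916 genes with at least 1 count, and for 31.3% of the tested genes, of which 15.7% were higher and 15.6% lower. With 3 uteri per group, an exact two-sided permutation test of a single gene cannot give a p below 0.1, which is the value each of these 7 genes reaches.

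**Figure D1:**
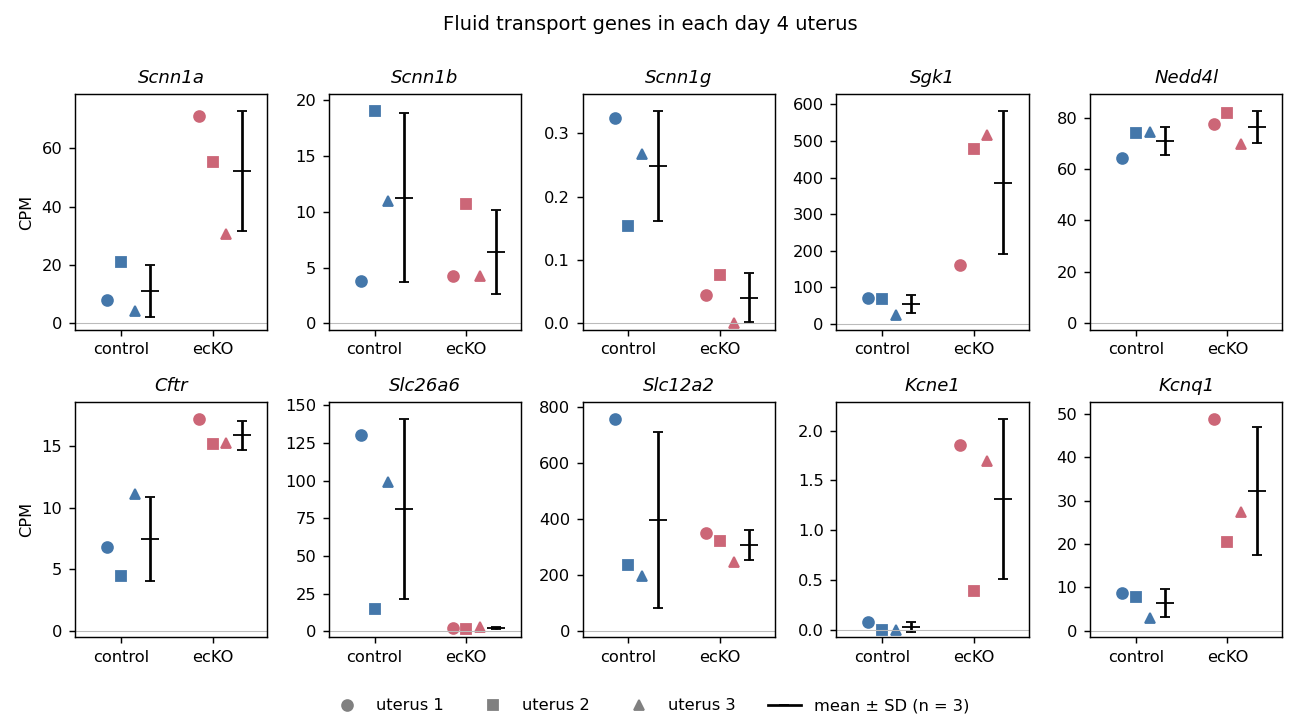
CPM of the 10 fluid transport genes in each uterus (y axis, a separate linear scale for each gene), with controls in blue, *Gp130* ecKO in red, the symbol giving the uterus number, and the bar giving mean ± SD of 3 uteri. *Sgk1*, *Scnn1a*, *Cftr*, *Kcnq1* and *Kcne1* are higher in all 3 *Gp130* ecKO uteri than in any control, *Slc26a6* and *Scnn1g* are lower, and *Scnn1b*, *Nedd4l* and *Slc12a2* overlap.

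None of the 3 ENaC subunits passed the quasi-likelihood test. *Scnn1a* was higher in all 3 *Gp130* ecKO uteri than in any control, *Scnn1b* overlapped between the groups, and *Scnn1g* was close to undetected in all uteri. *Scnn1a* (ENSMUSG00000030340, GRCm39 chr6:125297622-125321906), the pore subunit needed for channel assembly, was at 7.89, 21.2 and 4.33 CPM in control uteri against 71.0, 55.1 and 30.5 CPM in *Gp130* ecKO. The lowest *Gp130* ecKO uterus was above the highest control, control 2. The log2 fold change was 2.22 ± 0.59 (SE, n = 3 per group), a 4.65-fold higher level, with a quasi-likelihood FDR of 0.0980 in edgeR. Without control 2 it was 3.10 with an FDR of 0.0217, and this was the only omission of 1 uterus that brought *Scnn1a* past the threshold. Omitting each uterus in turn gave log2 fold changes from 1.84 to 3.10 and FDR values from 0.0217 to 0.272.

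*Scnn1b* (ENSMUSG00000030873, chr7:121463946-121517737), one of the partner subunits that raise channel activity at the membrane, was at 3.80, 19.0 and 11.0 CPM in control uteri against 4.20, 10.7 and 4.23 CPM in *Gp130* ecKO. Control 1 was the lowest and control 2 the highest of all 6 uteri. Its log2 fold change was -0.82 ± 0.62 (SE, n = 3 per group, edgeR FDR = 0.435), and it ranged from -1.41 to -0.14 as each uterus was omitted. *Scnn1g* (ENSMUSG00000000216, chr7:121333545-121367755), the other partner subunit, encoded on the same chromosome, had 8, 4 and 4 counts in the controls and 1, 2 and 0 counts in *Gp130* ecKO. These are 16 against 3 counts in all, a control over *Gp130* ecKO ratio of 5.87 with a 95% counting interval of 1.68 to 31.4. In the fit without the filter on low counts its log2 fold change was -2.39 (edgeR FDR = 0.226). As each uterus was omitted it ranged from -3.17 without *Gp130* ecKO 2 to -1.85 without *Gp130* ecKO 3.

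Per length, the subunits were present at low levels. On the deposited TPM scale (transcript levels corrected for length and library size), *Scnn1a* was at 2.84, 8.02 and 1.75 in the controls and at 29.2, 24.3 and 11.0 in *Gp130* ecKO. *Scnn1b* was at 1.95, 10.2 and 6.28 TPM in the controls and at 2.43, 6.72 and 2.18 TPM in *Gp130* ecKO. *Scnn1g* was at 0.14 TPM or less in every uterus. The ratio of *Scnn1a* to *Scnn1b* TPM was 1.46, 0.782 and 0.279 in the controls and 12.0, 3.61 and 5.06 in *Gp130* ecKO, without overlap. *Scnn1a* made up 57.6%, 43.7% and 21.5% of the summed ENaC TPM in the controls and 92.3%, 78.2% and 83.5% in *Gp130* ecKO. The summed ENaC TPM itself overlapped, since control 2 (18.3) was above *Gp130* ecKO 3 (13.2).

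**Figure D2:**
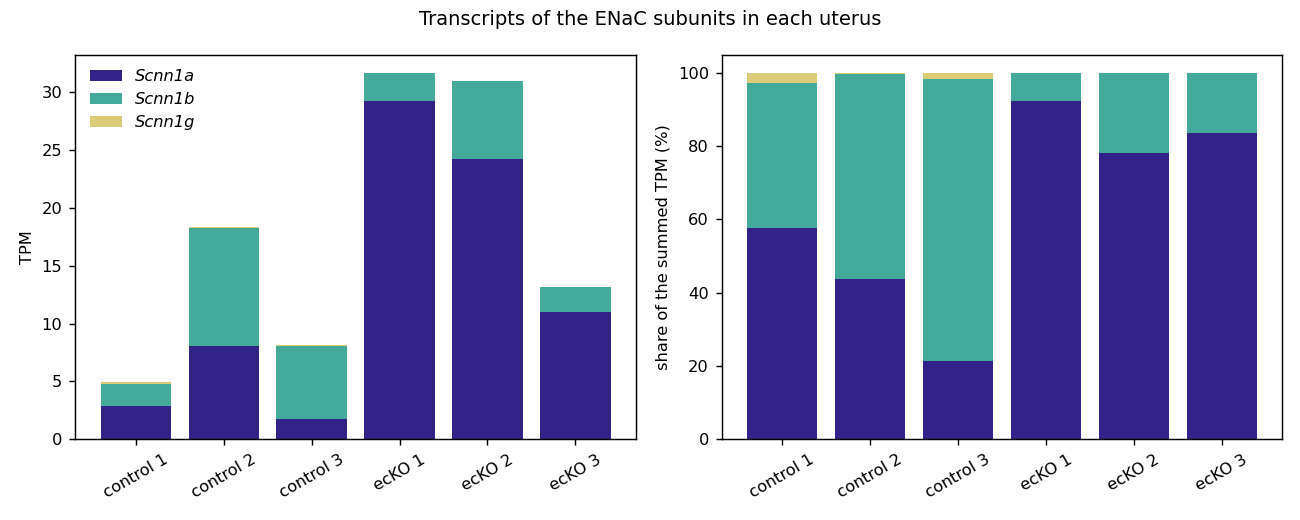
TPM of the 3 ENaC subunits stacked for each uterus (left, y axis in TPM) and as a share of their sum (right, y axis in percent). *Scnn1a* takes 21.5% to 57.6% of the sum in the controls and 78.2% to 92.3% in *Gp130* ecKO, while *Scnn1g* is at most 2.84%.

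*Sgk1* was higher in all 3 *Gp130* ecKO uteri than in any control, without passing the quasi-likelihood test, and its counterpart *Nedd4l* was at nearly the same level in all 6 uteri. *Sgk1* (ENSMUSG00000019970, chr10:21758083-21875802), a serum- and glucocorticoid-induced kinase that also answers to progesterone in the uterus, was at 69.8, 68.5 and 25.1 CPM in control uteri against 161, 478 and 518 CPM in *Gp130* ecKO. Control 3 was the lowest of the controls and *Gp130* ecKO 1 was the lowest of its group, yet above every control. The log2 fold change was 2.82 ± 0.55 (SE, n = 3 per group), a 7.07-fold higher level, with an edgeR FDR of 0.0677. It stayed between 2.48 and 3.19 when each uterus was omitted in turn, with FDR values from 0.0521 to 0.163.

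*Sgk1* has several transcription starts, and the mix of its transcripts that RSEM estimated differed between the groups. The effective length given to *Sgk1*, an average over its transcripts weighted by their abundance, was 2362, 2006 and 2103 bases in the controls and 1561, 1470 and 1830 bases in *Gp130* ecKO. All 3 *Gp130* ecKO values were below all control values, as was the case in one direction or the other for 19.6% of the 13068 tested genes whose effective length varied. The shorter average makes the difference larger per length. In TPM *Sgk1* was at 36.4, 44.3 and 16.6 in the controls and at 143, 490.2 and 349.8 in *Gp130* ecKO. Antisense genes cover 14.45% of its exon bases, and the sources do not state whether counting used strand.

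Because *Sgk1* is a steroid-induced gene with several starts, the bases upstream of its starts are shown for the start with a full steroid receptor element and the start with STAT letters. RefSeq lists 6 *Sgk1* starts with promoter sequence (table build GRCm38.p6), and the 250 bases before each were placed on GRCm39 by exact match. They were searched on both strands for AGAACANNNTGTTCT (the glucocorticoid and progesterone receptor element), its half-site AGAACA, GGTCANNNTGACC (the estrogen response element) and TTCNNNGAA (a STAT element). The full glucocorticoid and progesterone receptor element contains the half-site on each strand. Capitals mark these matches, and both windows read 5′ to 3′ on the plus strand, at chr10:21757833-21758082 for the first start and at chr10:21869539-21869788 for the fifth.

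Sgk1 start 1: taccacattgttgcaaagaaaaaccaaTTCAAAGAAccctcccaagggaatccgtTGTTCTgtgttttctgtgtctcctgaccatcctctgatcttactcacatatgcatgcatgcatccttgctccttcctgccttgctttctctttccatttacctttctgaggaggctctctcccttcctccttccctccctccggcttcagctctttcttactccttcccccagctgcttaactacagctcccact
Sgk1 start 5: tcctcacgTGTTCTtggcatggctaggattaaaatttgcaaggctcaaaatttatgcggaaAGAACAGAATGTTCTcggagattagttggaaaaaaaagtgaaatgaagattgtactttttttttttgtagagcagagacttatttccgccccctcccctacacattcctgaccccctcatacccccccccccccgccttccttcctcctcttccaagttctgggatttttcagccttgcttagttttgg

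The window of *Sgk1* start 5 holds the full element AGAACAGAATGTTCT from 189 to 175 bases before the start, and a further half-site from 242 to 237 bases before it. The full element was found in 3 of 32851 promoter windows of the same length (0.00913%). The window of *Sgk1* start 1 holds the STAT letters TTCAAAGAA from 223 to 215 bases before the start and a half-site from 195 to 190 bases before it. All 250 of its bases lie in annotated exons outside the span of *Sgk1*, whose gene and strand were not recorded. The pattern TTCNNNGAA was found in 7.02% of windows and the half-site in 16.1%. *Sgk1* start 4 holds a half-site from 13 to 8 bases before the start, and the other *Sgk1* windows hold none of the letters. The gene tables do not say which start the reads came from, and a match describes letters, not a bound site.

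*Nedd4l* (ENSMUSG00000024589, chr18:65020724-65350899), the ubiquitin ligase that withdraws ENaC from the membrane, was at 64.4, 73.9 and 74.3 CPM in control uteri against 77.5, 81.7 and 69.7 CPM in *Gp130* ecKO. The groups overlapped, and relative to its level *Nedd4l* varied the least of the 10 genes over the 6 uteri. Its log2 fold change was 0.11 ± 0.15 (SE, n = 3 per group, edgeR FDR = 0.680). The ratio of *Sgk1* to *Nedd4l* TPM was 1.24, 1.12 and 0.466 in the controls and 4.08, 11.6 and 11.4 in *Gp130* ecKO. Kinase transcripts exceeded ligase transcripts at least 4.08 times in each *Gp130* ecKO uterus, and at most 1.24 times in the controls.

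The luminal anion carriers did not pass the quasi-likelihood test. In CPM, *Slc26a6* was below every control in all 3 *Gp130* ecKO uteri and *Cftr* was above, while the chloride loader *Slc12a2* overlapped. *Slc26a6* (ENSMUSG00000023259, chr9:108730289-108742118), an apical exchanger of chloride for bicarbonate, was at 129.9, 14.7 and 99.1 CPM in control uteri against 2.03, 1.77 and 2.86 CPM in *Gp130* ecKO. Control 2 was well below the other controls, and the highest *Gp130* ecKO uterus was lower still. The log2 fold change was -5.19 ± 0.79 (SE, n = 3 per group), a 36.5-fold lower level, with an edgeR FDR of 0.055. *Slc26a6* passed the threshold in the fit without the filter on low counts (FDR = 0.0367) and in the fit without control 2 (-5.65, FDR = 0.00327), and the other omissions reached an FDR of up to 0.176. An antisense gene, *Gm57039*, covers 33.7% of the exon bases of *Slc26a6*, and reads of the pair could not be told apart if strand was ignored.

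*Cftr* (ENSMUSG00000041301, chr6:18170686-18322767), the cAMP-gated chloride and bicarbonate channel of the apical membrane, was at 6.80, 4.47 and 11.1 CPM in control uteri against 17.2, 15.2 and 15.3 CPM in *Gp130* ecKO. The 3 *Gp130* ecKO uteri were close together and above the highest control, control 3. The log2 fold change was 1.10 ± 0.35 (SE, n = 3 per group, edgeR FDR = 0.124), which DESeq2 called at an FDR of 0.0302. The 250 bases before the RefSeq start of *Cftr*, at GRCm39 chr6:18170436-18170685 on the plus strand, hold none of the 4 sets of letters and are shown as the contrast to *Sgk1*, since both genes were higher in *Gp130* ecKO.

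Cftr start 1: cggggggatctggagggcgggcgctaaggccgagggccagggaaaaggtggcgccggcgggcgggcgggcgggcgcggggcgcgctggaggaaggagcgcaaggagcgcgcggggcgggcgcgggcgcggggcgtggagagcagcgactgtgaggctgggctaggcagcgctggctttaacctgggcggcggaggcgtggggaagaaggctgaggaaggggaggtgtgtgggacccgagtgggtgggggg

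The *Cftr* window is rich in G and C (76.4%, with 30 CpG), while the window of *Sgk1* start 5 has 44.8% G and C and 5 CpG and that of *Sgk1* start 6 has 70.4% and 22 CpG. The windows of *Scnn1b*, *Scnn1g* and *Slc26a6* also hold none of the letters, but 250, 157 and 250 of their 250 bases lie in annotated UTR exons on GRCm39, as do all 250 of *Sgk1* start 6. No match says only that these letters are absent from these bases.

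*Slc12a2* (ENSMUSG00000024597, chr18:58011164-58080812), the basolateral sodium, potassium and chloride cotransporter, was at 756.5, 235 and 197 CPM in control uteri against 351, 320.0 and 246.5 CPM in *Gp130* ecKO. Control 1 was above all other uteri, and the other controls were below all *Gp130* ecKO uteri. Its log2 fold change was -0.37 ± 0.50 (SE, n = 3 per group, edgeR FDR = 0.662), and it turned to 0.53 without control 1 (FDR = 0.283). The ratio of *Slc26a6* to *Cftr* TPM was 47.0, 8.92 and 21.0 in the controls and 0.253, 0.263 and 0.487 in *Gp130* ecKO. Exchanger transcripts exceeded channel transcripts in every control and were fewer in every *Gp130* ecKO uterus.

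Both potassium channel genes were higher in all 3 *Gp130* ecKO uteri than in any control, though neither passed the quasi-likelihood test. *Kcnq1* (ENSMUSG00000009545, chr7:142660099-142980788), the pore subunit of an epithelial and cardiac voltage-gated channel, was at 8.78, 7.71 and 2.87 CPM in control uteri against 48.8, 20.4 and 27.5 CPM in *Gp130* ecKO. The groups were well apart, with control 3 the lowest and *Gp130* ecKO 1 the highest. The log2 fold change was 2.30 ± 0.48 (SE, n = 3 per group), a 4.94-fold higher level, with an edgeR FDR of 0.0752. Antisense genes, among them *Kcnq1ot1*, cover 23.5% of the exon bases of *Kcnq1*. *Kcne1* (ENSMUSG00000039639, chr16:92142870-92156356), the small subunit that slows the opening of KCNQ1, had 2, 0 and 0 counts in the controls and 41, 10 and 41 counts in *Gp130* ecKO. The sums of 92 and 2 counts gave a *Gp130* ecKO over control ratio of 41.8 with a 95% counting interval of 11.3 to 350.3. In the fit without the filter on low counts the FDR of *Kcne1* was 0.0593, and detection in the controls rested on control 1 alone. *Kcne1* was past the threshold in the same unfiltered counts by DESeq2 (FDR = 0.00207) and by 3 other edgeR tests, the exact test (0.00131), the likelihood ratio test (0.000593) and the legacy quasi-likelihood form (0.02995). Without control 1 the fitted difference went from 5.21 to 7.90 on the log2 scale, a value that depends on the prior count.

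**Figure D3:**
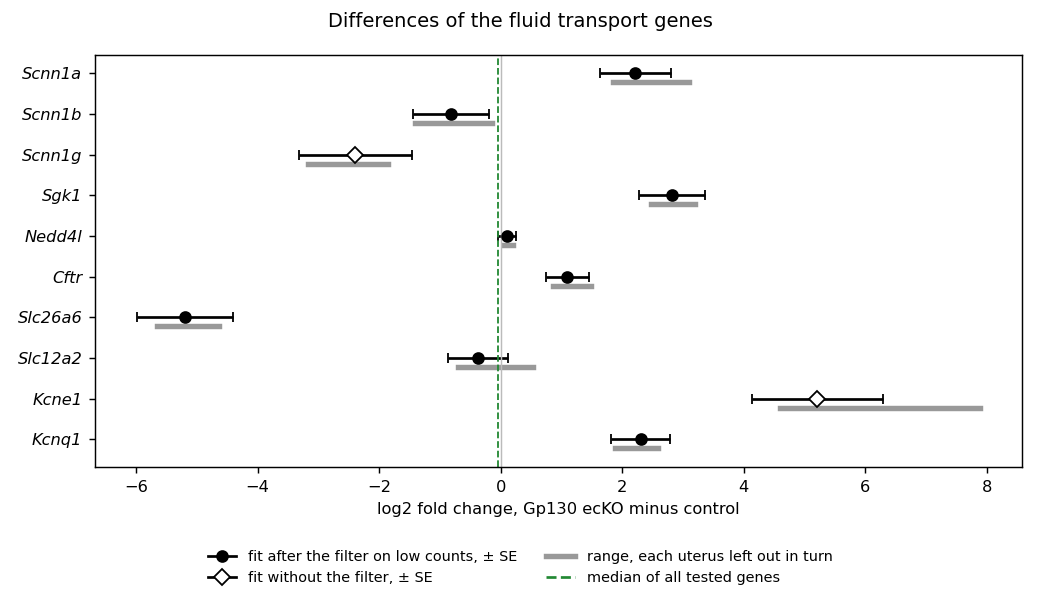
Log2 fold change of each fluid transport gene (x axis, *Gp130* ecKO minus control) with its SE, filled points from the fit after the filter on low counts and open diamonds from the fit without it. Grey bars give the range as each uterus is omitted in turn and the dashed line gives the median of all tested genes (-0.05). *Slc26a6* lies farthest to the left at -5.19, and only the bar of *Slc12a2* reaches both sides of 0.

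The order of the 10 genes per length was also different between the groups. In the controls *Slc12a2* (42.3 to 145 TPM) or *Slc26a6* (8.47 to 63.0 TPM) had the highest level. The ranges of *Slc12a2*, *Slc26a6*, *Nedd4l* (29.45 to 39.6 TPM) and *Sgk1* (16.6 to 44.3 TPM) overlapped there, except those of *Nedd4l* and *Slc12a2*, and *Sgk1* was below *Slc12a2* within each control. *Scnn1b*, *Scnn1a*, *Kcnq1* and *Cftr* came next with mean levels of 6.16, 4.20, 3.04 and 1.58 TPM in the controls and overlapping ranges. In *Gp130* ecKO *Sgk1* ranked first in all 3 uteri, above *Slc12a2* (47.3 to 75.7 TPM) and *Nedd4l* (30.7 to 42.2 TPM), and these ranges did not overlap. *Scnn1a* (11.0 to 29.2 TPM) and *Kcnq1* (11.1 to 23.3 TPM) followed without separation from each other, and *Scnn1b* (2.18 to 6.72 TPM) overlapped *Cftr* (3.18 to 3.91 TPM). *Kcne1* at 0.66 to 2.15 TPM overlapped *Slc26a6*, and *Scnn1g* was last. *Slc26a6* moved from rank 1, 2 or 5 in the controls to rank 8 or 9, at 0.97 to 1.55 TPM.

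Markers of several cell types also differed between the groups, beside the transport genes. The summed CPM of 10 epithelial markers (*Epcam*, *Cdh1*, keratins and others) was 2094 to 3163 in the controls and 4532 to 6177 in *Gp130* ecKO, and 6 of the 10 were higher at an unadjusted p under 0.05, where 12.1% of all tested genes were higher and 12.9% lower. *Epcam* itself was not higher (log2 fold change -0.19 ± 0.27, edgeR FDR = 0.678). Summed stromal markers were at 3060 to 4030 CPM in control uteri against 1813 to 2470 CPM in *Gp130* ecKO, with 4 of 7 lower at that limit. Endothelial markers were at 342.4 to 820.1 and 185.1 to 331.6 CPM, with 5 of 5 lower. Of the gland list 1 of 6 was higher, and its sum of 415.5 to 1410 CPM in control uteri against 880.8 to 9324 CPM in *Gp130* ecKO overlapped. The value of 9324 CPM was *Gp130* ecKO 1 alone, mostly through *Prss29* at 6546 CPM. *Gp130* ecKO 2 and 3 were at 936.6 and 880.8 CPM. Summed smooth muscle (0 of 6), macrophage (0 of 6) and lymphocyte (0 of 5) markers overlapped as well. The neutrophil sum also overlapped, at 2.07 to 5.95 CPM in control uteri against 0.633 to 3.65 CPM in *Gp130* ecKO, but 3 of its 5 markers (*S100a8*, *S100a9* and *Mpo*) were lower without overlap while *Ly6g* overlapped. Of all tested genes 15.6% were lower without overlap. An oviduct list summed to 186.8 to 227.3 CPM in control uteri against 646.2 to 1299 CPM in *Gp130* ecKO, mostly through *Ovgp1*, with 2 of 4 higher and 1 lower at that limit, and *Ovgp1* was the only one of the 4 whose groups did not overlap. *Ovgp1* passed the quasi-likelihood test (log2 fold change 3.68 ± 0.40, edgeR FDR = 0.0377), but not its legacy form (FDR = 0.0592), and its FDR reached 0.137 as each uterus was omitted. None of the marker genes was at 0 counts in all uteri, though the neutrophil marker *Camp* was at 0 in all controls.

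Dividing each transport gene by the summed epithelial markers of the same uterus separated the genes. This scale was added after the values had been seen. The markers in the sum did not differ alike between the groups. Their fitted levels in *Gp130* ecKO over control ran from 0.876 for *Epcam* and 1.12 for *Wnt7a* to 2.49 for *Krt8* and 4.57 for *Krt19*. The study reports higher KRT8 and CDH1 by staining in the *Gp130* ecKO epithelium. Whether the sum follows the amount of epithelium was not tested, so values on this scale are not corrected for that amount. *Sgk1* (log2 ratio of group means 2.07), *Kcnq1* (1.42) and *Kcne1* (4.74) stayed higher in every *Gp130* ecKO uterus, and *Slc26a6* (-6.19) and *Scnn1g* (-3.57) stayed lower. *Scnn1a* (1.39) and *Cftr* (0.05) overlapped on this scale, and *Nedd4l* (-0.84) and *Slc12a2* (-1.26) were lower without overlap. The mean of the marker sum was itself 1.889 times as high in *Gp130* ecKO, which shifts a gene of equal CPM downward. The lower values of *Nedd4l* and *Slc12a2*, which overlapped in CPM, are therefore not a result about these genes. The share of all genes without overlap on this scale is not given. Divided by *Epcam* alone, the same 7 genes as in CPM did not overlap, among them *Scnn1a* at 2.28 and *Cftr* at 1.13. Which cells held the transcripts, and the part of the cell mixture in these differences, was not tested beyond these values.

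**Figure D4:**
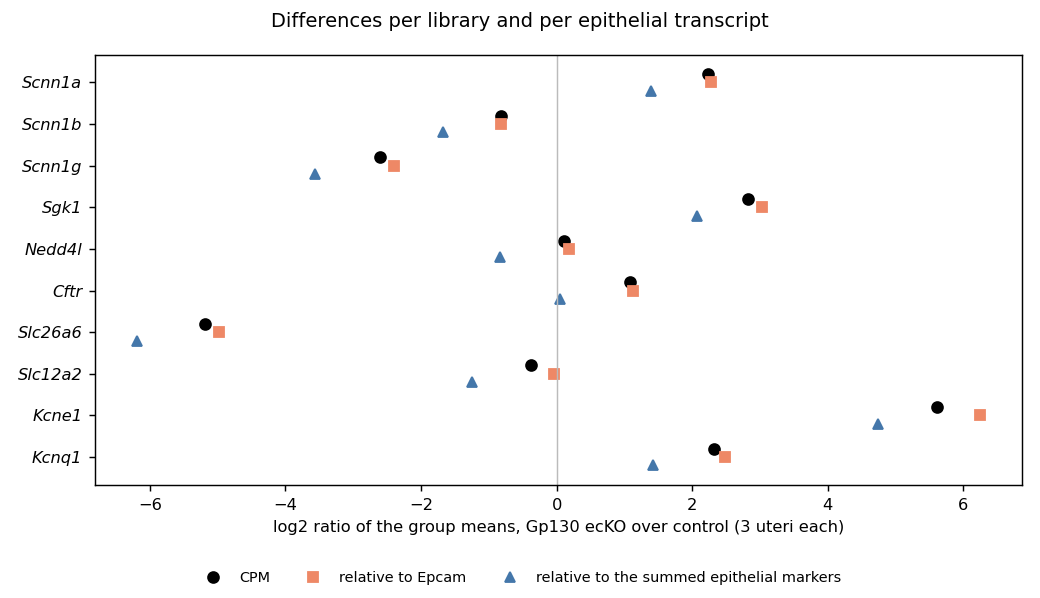
Log2 ratio of the group means (x axis, *Gp130* ecKO over control, 3 uteri each) for each fluid transport gene in CPM, relative to *Epcam* and relative to the summed epithelial markers. On the last scale *Cftr* is at 0.05 while *Sgk1* is at 2.07 and *Slc26a6* at -6.19. The summed markers were themselves higher in every *Gp130* ecKO uterus, which shifts values on that scale downward. Whether their sum follows the amount of epithelium was not tested.

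The other genes of epithelial ion transport were followed as 6 lists with 74 genes, of which 63 were tested. edgeR's quasi-likelihood test called 0 of the 63, its exact and likelihood ratio tests called 4 each and DESeq2 called 5, beside 7.54%, 7.93% and 9.29% of all tested genes. At an unadjusted p under 0.05 there were 10 higher and 5 lower, 23.8% of the 63 beside 25.0% of all tested genes. Their median log2 fold change was 0.14, beside 0.60 for the 8 transport genes described above and -0.05 for all tested genes. For 17 of the 74, all among the 63 tested, the groups did not overlap, beside 31.3% of all tested genes and 20.9% of genes with a count.

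Among the proteases that activate ENaC and their inhibitors, 1 of 7 was higher at that limit (*Tmprss4*, named after its value was seen), and for *Furin*, which cleaves the channel in the secretory pathway, the groups did not overlap. *Furin* was at 74.9 to 94.3 CPM in control uteri against 95.1 to 99.98 CPM in *Gp130* ecKO (log2 fold change 0.22 ± 0.15, edgeR FDR = 0.393). Of 16 tested kinase, ubiquitin and steroid genes that act on ENaC, 4 were higher (*Wnk2*, *Cnksr3*, *Pdpk1* and *Stk39*) and 0 were lower. At the same limit 12.1% of all tested genes were higher and 12.9% lower. *Wnk2*, a kinase of the WNK family that controls cation and chloride carriers, was at 12.7, 21.2 and 18.9 CPM in control uteri against 96.1, 52.3 and 57.0 CPM in *Gp130* ecKO, a difference of 1.96 ± 0.31 on the log2 scale (edgeR FDR = 0.055, and 0.0268 without control 2 to 0.1504 as each uterus was omitted). *Cnksr3*, a scaffold that ties SGK1 to ENaC, was at 14.7 to 22.7 CPM in control uteri against 29.9 to 47.8 CPM in *Gp130* ecKO (0.87 ± 0.27, edgeR FDR = 0.120). Neither *Wnk2* nor *Cnksr3* overlapped between the groups.

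The sodium pump genes gave 1 higher (*Atp1b1*) and 2 lower (*Fxyd2* and *Fxyd5*) of 11 at that limit, beside 12.1% and 12.9% of all tested genes. *Fxyd4*, a small regulator of the pump, ranged from 27.9 to 418 CPM in the controls and from 441 to 714 CPM in *Gp130* ecKO (1.72 ± 0.87, edgeR FDR = 0.259). Without control 2, the highest control, *Fxyd4* was at 3.57 on the log2 scale with an FDR of 0.0164, and the other omissions reached an FDR of up to 0.480. Its relative *Fxyd5* was lower at 16.8 to 30.6 CPM beside 52.1 to 92.2 CPM (-1.52 ± 0.30, edgeR FDR = 0.0677, and 0.0321 without control 2 to 0.191 as each uterus was omitted). Of the 5 tested exchangers and scaffolds, *Ezr*, which anchors apical membrane proteins to actin, was higher (1.23 ± 0.27, edgeR FDR = 0.0810). *Nherf2*, a scaffold of the same membrane, was lower (-0.79 ± 0.25, edgeR FDR = 0.125).

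Of 15 tested chloride channels and carriers, 3 were higher (*Clca1*, *Clcn2* and *Slc26a9*) and 2 lower (*Clca2* and *Clca3a1*) at an unadjusted p under 0.05. Of all tested genes 12.1% were higher and 12.9% lower at that limit. *Slc26a9* had few counts, with means of 0.444 CPM in control uteri and 1.14 CPM in *Gp130* ecKO. *Clca1*, a secreted regulator of chloride conductance, was at 1.21, 1.20 and 0.267 CPM in control uteri against 14.5, 159 and 276 CPM in *Gp130* ecKO. The 3 *Gp130* ecKO values of *Clca1* were far apart, though each was above every control, and the log2 fold change was 7.31 ± 1.16 (edgeR FDR = 0.055). As each uterus was omitted it ranged from 6.55 without *Gp130* ecKO 3 to 7.85 without *Gp130* ecKO 1, with FDR values from 0.0216 to 0.162. *Clcn2*, a voltage-gated chloride channel, was higher (1.18 ± 0.42, edgeR FDR = 0.149) and *Clca2*, a relative of *Clca1*, was lower (-1.27 ± 0.46, edgeR FDR = 0.152), both without overlap. *Clcn2* was at 69.3, 26.3 and 26.6 CPM in the 3 *Gp130* ecKO uteri, and its difference was 0.56 without *Gp130* ecKO 1. Of 9 tested other potassium channels, 0 had an unadjusted p under 0.05, and *Kcnn4*, a calcium-activated channel, did not overlap at 1.87 to 2.06 CPM in control uteri against 2.19 to 4.73 CPM in *Gp130* ecKO.

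**Figure D5:**
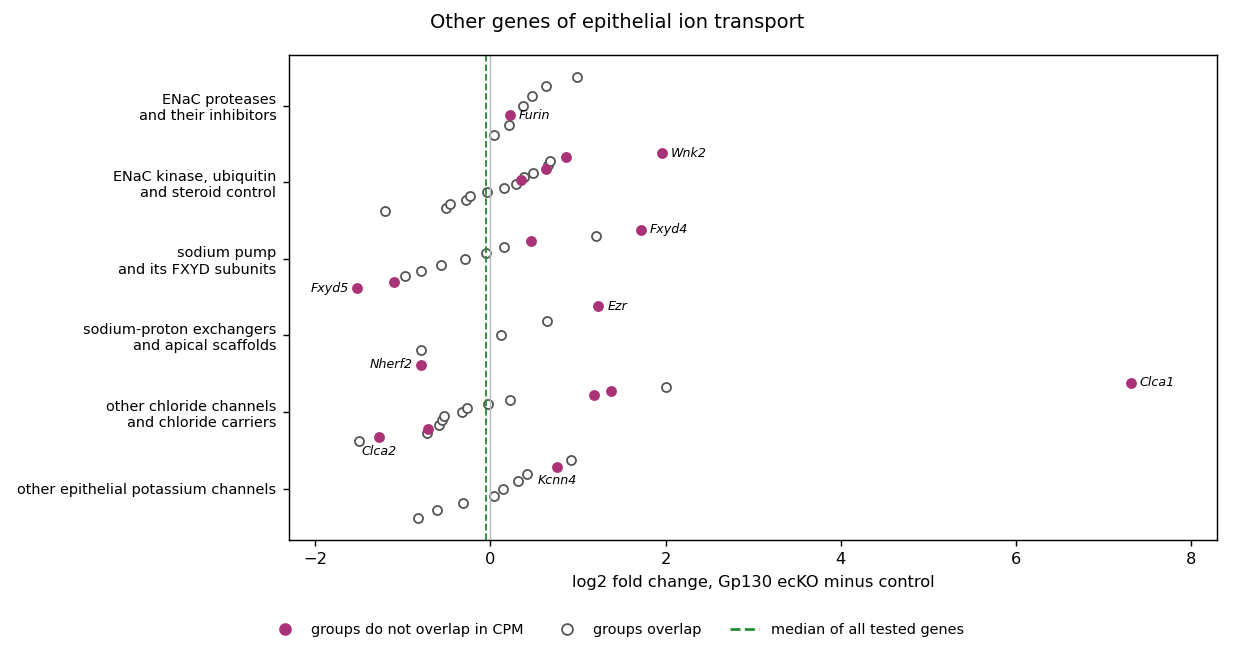
Log2 fold change (x axis, *Gp130* ecKO minus control) of the 63 tested other transport genes, by list, with filled points for groups that do not overlap in CPM and the dashed line at the median of all tested genes. *Clca1* stands apart at 7.31, and the named point is the one farthest from 0 in each direction within a list among genes that did not overlap.

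The genes whose values over the 6 uteri were closest to *Sgk1*, *Scnn1a* and *Cftr* were sought among 14762 genes by the root mean square distance of centred log2(CPM + 0.5). Closest to *Sgk1* were *Hs3st3b1* (distance 0.45), *Slc16a14* (0.46) and *Fndc1* (0.50). Closest to *Scnn1a* were *Epha4* (0.20), *Barx2* (0.27) and *Rtn1* (0.33). *Epha4* was at 8.29, 25.4 and 6.13 CPM in control uteri against 98.6, 57.8 and 29.6 CPM in *Gp130* ecKO, with the same order of uteri in each group as *Scnn1a*. Closest to *Cftr* were *Laptm5* (0.23), *Lca5* (0.24) and *Dst* (0.25).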

How the data were processed

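Poly(A) RNA of 6 whole uteri, 3 per group, was made into strand-specific libraries and read once per fragment over 75 bases. The authors trimmed reads with fastp 0.23.2, removed ribosomal RNA reads, mapped to GRCm39 with STAR 2.7.10a and estimated counts with RSEM 1.3.3. The deposited tables hold expected counts and TPM per gene. The annotation version and the use of strand in counting are not given in the sources used here. They also give an effective length per gene, used here for *Sgk1*.

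Expected counts were rounded and tested in R 4.3.3 with edgeR 4.0.16 (filterByExpr, 16605 genes, TMM, quasi-likelihood F test, Benjamini-Hochberg FDR over all tested genes). CPM use TMM-scaled library sizes. Genes below the filter take values from the same fit without it. Calls needed an FDR under 0.05 and more than 2-fold. Total counts per uterus were 13960748 to 25906443. Counting intervals are exact 95% intervals and cover counting error only. No 2 uteri of a group had nearly identical counts. Scripts were tested on simulated data.

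The 10 genes, the lists of other transport genes and the marker lists were chosen with earlier results of these data known. Named other genes were, in each list, up to 2 higher and 2 lower genes with the largest difference among tested genes whose groups did not overlap and whose mean CPM was 1 or more. 1 gene that this rule names is not reported here. Of the 8 transport genes outside chromosome 18, 5 had promoter entries in the RefSeq table and were searched. Coordinates came from GENCODE on GRCm39. Alternatives were other tests (DESeq2 1.42.0 included), RLE scaling, no filter, TPM, a replicate block and omission of each uterus.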

Additional observations from a re-analysis of the deposited data

How the results depend on the processing

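Of the alternatives for single transport genes, 107 kept direction and side of the threshold. Another 20, some of them other quasi-likelihood fits, passed the threshold where the quasi-likelihood fit used for the values above did not. The remaining 1 changed direction (*Slc12a2*, -0.70 to 0.53 as each uterus was omitted, with 0.53 without control 1). Transport genes called numbered 0 by the quasi-likelihood test, 4 by edgeR's exact test, 4 by its likelihood ratio test, 5 by DESeq2, 1 without the filter on low counts, and 0 to 2 as each uterus was omitted, with 2 without control 2. Other transport genes called were 0, then 4, 4, 5 and 2 in the same order, and 0 to 6 as each uterus was omitted, with 6 without control 2. All genes called were 26 by the quasi-likelihood test, 7 in the legacy form of the quasi-likelihood test, 1252 by the exact test, 1317 by the likelihood ratio test, 1542 by DESeq2, 105 without the filter, and 1 to 897 as each uterus was omitted, with 897 without control 2. The cause of these differences was not tested. In CPM the groups did not overlap for 7 of the 10 transport genes, beside 20.9% of the 29916 genes with at least 1 count. The number was 7 with RLE scaling and in TPM, and 7 to 9 as each uterus was omitted. The share over all genes is not given for these alternatives. With a uterus fewer, groups separate more easily, so the rise to 9 is not a result about these genes. With the replicate number as a block (replicate block), 6 genes were called in all and 0 transport genes. The correlation of same-numbered uteri across genes was -0.196 to 0.104, within the -0.311 to 0.22 of differently numbered uteri. These values gave no sign that the numbers pair the uteri, but 3 uteri per group are too few to exclude it. Control 3, with 13960748 counts, is the least deeply sequenced uterus. At that depth 3 counts, the floor used, limit what can be said of *Scnn1g* and *Kcne1*.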
